A study of Homo sapiens with 8 samples.

Results

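The genes described are 10 core members of the NF-kB pathway: the 5 subunits NFKB1, NFKB2, REL, RELA and RELB, and the 5 inhibitors and regulators NFKBIA, NFKBIE, NFKBIZ, TNFAIP3 and BCL3. They were taken by symbol, and all 10 were among the 19583 rows of the deposited gene table. Their RNA was measured by sequencing of polyadenylated RNA from MDA-MB-231, a human triple-negative breast cancer line. Cells had a scrambled control hairpin (shSC) or bore the label of a hairpin against CHD4 (shCHD4), the ATPase of the NuRD chromatin remodelling complex. Each label was kept at 20% or 1% O2 for 24 hours, which gave 4 groups of 2 libraries: shSC at 20% O2, shSC at 1% O2, shCHD4 at 20% O2 and shCHD4 at 1% O2. All groups grew in DMEM with fetal bovine serum, and every group carried a hairpin. The sources used here do not give the hairpin sequences, or whether the lines were clones or pools. They also do not state separate cultures within a group, so each p-value reflects only how far these libraries varied, possibly for technical reasons.

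NF-kB is a family of dimeric transcription factors. RELA, RELB and REL carry transactivation domains, while NFKB1 and NFKB2 encode the precursors p105 and p100, which are processed to the DNA-binding partners p50 and p52. In resting cells IkB proteins such as NFKBIA and NFKBIE hold the dimers in the cytoplasm, and signals from TNF, interleukin-1 or Toll-like receptors lead to their phosphorylation by IkB kinases and their degradation. NFKBIZ and BCL3 are IkB-like proteins that act in the nucleus, and TNFAIP3 (A20) is a ubiquitin-editing enzyme that shuts down signalling upstream of the kinases. Several of these genes are known targets of NF-kB itself, which gives the pathway its negative feedback, and triple-negative lines such as MDA-MB-231 are known for constitutive NF-kB activity.

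The promoter windows are shown because several of the 10 genes are known NF-kB targets. RefSeq promoter sequences (build GRCh38.p14) matched 8 of the 10 genes, with 13 start sites in all. RELB and NFKBIE had no entry. The 250 bases upstream of each start were searched on both strands for the NF-kB consensus, a 10-base motif, and matches could overlap. It occurred in 6 of the 8 genes (NFKB1, NFKB2, REL, NFKBIA, NFKBIZ and TNFAIP3), or 75.0%, compared with 11.8% of the 27305 genes with a window of that length. By window it occurred in 8 of 13, compared with 9.96% of all 35116. The 10 genes were chosen as NF-kB pathway genes, several of them known targets, so these shares are not independent evidence. Both RELA windows and the BCL3 window had no match, which says only that these letters are not in those 250 bases. In NFKB1 the match began 49 bases before the first of its 2 start sites, and the second had no match. In NFKBIA it began 81 bases before the start, and in TNFAIP3 the 2 matches lay at 67 and 55 bases. NFKBIZ had a match before each of its 2 start sites, at 223 and 239 bases. Of the 3 start sites of NFKB2, the first had no match, the second had 2 overlapping stretches at 107 and 106 bases and another at 78, and the third had matches at 176 and 21 bases. A match is a description of sequence and not evidence of binding, and no link to the differences between labels was tested. For each of these 5 genes 1 window with a match is printed (the first start of NFKB1 and NFKBIZ and the second of NFKB2), and the second RELA start as one without a match. They are given 5′ to 3′ with matches in capitals.
NFKB1, chr4:102501109-102501358, plus strand: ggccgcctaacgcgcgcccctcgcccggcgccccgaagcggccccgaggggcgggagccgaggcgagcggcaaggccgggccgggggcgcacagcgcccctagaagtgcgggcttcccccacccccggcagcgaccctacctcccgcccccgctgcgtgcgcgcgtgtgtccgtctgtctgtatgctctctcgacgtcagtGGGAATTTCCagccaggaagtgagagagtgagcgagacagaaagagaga
NFKB2, chr10:102394328-102394577, plus strand: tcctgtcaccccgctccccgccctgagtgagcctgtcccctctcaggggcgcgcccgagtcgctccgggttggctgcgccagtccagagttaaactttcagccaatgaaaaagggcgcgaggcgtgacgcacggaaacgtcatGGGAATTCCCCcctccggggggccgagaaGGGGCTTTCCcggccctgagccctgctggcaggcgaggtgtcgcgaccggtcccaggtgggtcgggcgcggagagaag
NFKBIA, chr14:35404750-35404999, minus strand: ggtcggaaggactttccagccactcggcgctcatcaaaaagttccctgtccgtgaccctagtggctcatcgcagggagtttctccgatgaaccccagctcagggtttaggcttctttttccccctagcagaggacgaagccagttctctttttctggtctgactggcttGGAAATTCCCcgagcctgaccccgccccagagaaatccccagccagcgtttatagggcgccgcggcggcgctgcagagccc
NFKBIZ, chr3:101827740-101827989, plus strand: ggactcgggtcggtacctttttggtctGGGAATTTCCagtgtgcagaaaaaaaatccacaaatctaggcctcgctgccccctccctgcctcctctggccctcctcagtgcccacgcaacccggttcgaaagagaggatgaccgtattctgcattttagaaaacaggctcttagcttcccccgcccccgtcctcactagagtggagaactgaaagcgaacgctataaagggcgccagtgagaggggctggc
TNFAIP3, chr6:137867009-137867258, plus strand: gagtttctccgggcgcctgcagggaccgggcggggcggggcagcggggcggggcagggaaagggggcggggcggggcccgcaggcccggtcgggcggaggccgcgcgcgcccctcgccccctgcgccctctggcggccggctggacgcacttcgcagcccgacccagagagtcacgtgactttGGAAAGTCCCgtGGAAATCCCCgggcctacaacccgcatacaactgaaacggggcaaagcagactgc
RELA, chr11:65662917-65663166, minus strand: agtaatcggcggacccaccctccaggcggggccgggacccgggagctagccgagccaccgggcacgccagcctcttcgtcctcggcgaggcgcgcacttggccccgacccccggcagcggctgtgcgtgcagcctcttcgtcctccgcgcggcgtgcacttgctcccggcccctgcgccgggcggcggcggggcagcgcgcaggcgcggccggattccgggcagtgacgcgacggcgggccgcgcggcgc

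The unit used here is the normalised read count, the number of reads of a gene divided by 1 factor for its library, with no division by gene length. Each library held 24947627 to 31903585 gene-assigned reads, and 16418 to 16861 genes had a read. The gene named by the hairpin label did not differ in the direction of that label. CHD4 had normalised read counts of 299 and 298 under shSC at 20% O2, and 293 and 305 in the libraries labelled shCHD4. At 1% O2 it had 279.7 and 278 under shSC, and 299 and 287 in the libraries labelled shCHD4. The log2 difference was 0.0018 at 20% O2 (95% interval -0.09 to 0.09) and 0.07 at 1% O2 (interval -0.02 to 0.16). For that reason the groups are called by their label throughout, and no direction is drawn from the knockdown itself. All 7 genes listed as markers of MDA-MB-231 were present. Of the 7 luminal markers ESR1, PGR and CDH1 stayed below 1 in every library, while KRT19 (30.8 to 137), GATA3 (8.38 to 14.6) and EPCAM (4.17 to 7.56) were above it. Of the immune markers the leukocyte gene PTPRC stayed below 1, and CD68 was at 108 to 122. Fewer cells of a kind and less RNA per cell cannot be told apart in bulk RNA.

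All 10 genes were lower in the libraries labelled shCHD4 than under shSC, at both O2 levels, and the 9 other than RELA were lower by 2-fold or more. Differences were tested with limma on log2(normalised read count + 0.5), with all 8 libraries in 1 fit, and p-values were adjusted over the 12645 genes that had a mean of at least 1. The threshold was an adjusted p of 0.05. The background was high: 38.6% of all tested genes passed the threshold in the lower direction at 20% O2 and 39.2% at 1% O2, with 37.0% and 38.2% higher. In either direction 75.6% and 77.4% passed, so passing the threshold was common in this comparison. The share of all tested genes whose libraries did not overlap between labels or O2 levels was not counted. Statements of that kind below describe each gene alone. A lower value by 2-fold or more was not, at 8.07% of tested genes at 20% O2 and 8.56% at 1% O2. The median log2 difference of the 10 genes was -1.47 at 20% O2 and -1.74 at 1% O2, and that of all tested genes -0.0091 and -0.0067. Luminal markers moved with the labels as well. At 20% O2 the sum of the 7 luminal markers, mostly KRT19, was 81.2 to 82.6 under shSC. Under the shCHD4 label it was 45.8 to 49.0. At 1% O2 the sums were 139 to 156 and 64.5 to 66.8, so they also differed between O2 levels. The sum of the immune markers, mostly CD68, was 110.2 to 124 in all 8 libraries. Of the 2 immune markers tested, 1 was called higher and 1 lower at 20% O2, and none at 1% O2. All 7 MDA-MB-231 markers were called at 20% O2, 3 higher and 4 lower. At 1% O2 they were 2 higher and 4 lower. The sum of the 7 fibroblast and endothelial markers was 4.74 to 6.02 in the shSC libraries and 6.77 to 8.11 in those labelled shCHD4, where PDGFRB was called higher at both O2 levels. Their part in the differences was not tested.

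**Figure D1:**
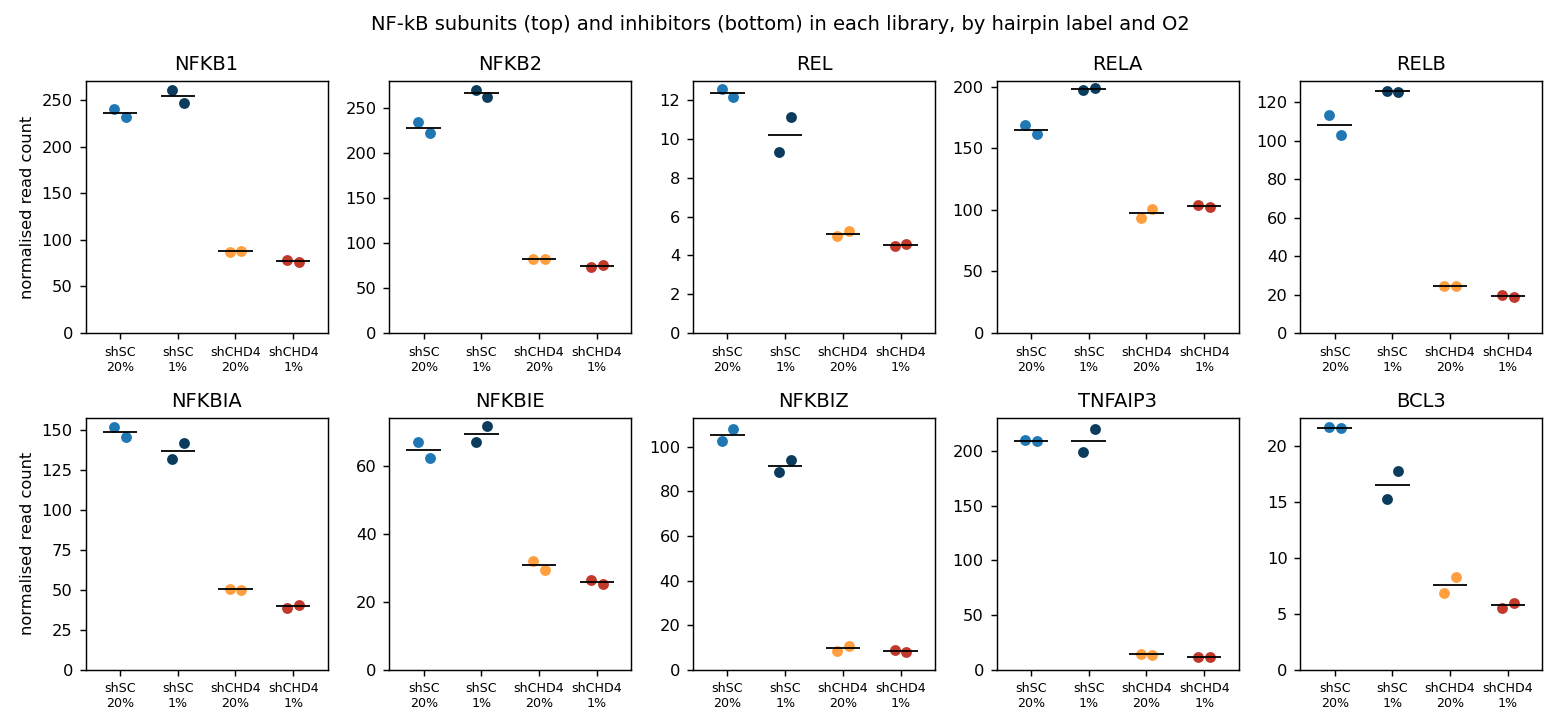
Normalised read count (vertical axis, starting at 0, a separate scale per gene) of the 5 subunits (top) and 5 inhibitors and regulators (bottom) in each library, by hairpin label and O2; points are libraries and bars are the means of 2. For every gene the 4 libraries labelled shCHD4 lie below the 4 shSC libraries, from RELA (93.7 to 104 against 162 to 199) to TNFAIP3 (11.3 to 14.5 against 199 to 220.0). The share of all tested genes for which this held was not counted.

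Among the subunits, RELB differed most and RELA least. RELB, the partner of p52 in the non-canonical pathway, had normalised read counts of 113 and 103 under shSC at 20% O2, 126 and 125 under shSC at 1% O2, 24.2 and 24.4 under the shCHD4 label at 20% O2, and 19.7 and 18.9 under that label at 1% O2. The groups of the 2 labels did not overlap, and each shSC library stood above 4 times any library labelled shCHD4. At 20% O2 the means were 108 ± 7.09 and 24.3 ± 0.125 (SD, n = 2), a 4.38-fold difference (log2 -2.13, 95% interval -2.25 to -2.01, limma adjusted p = 2.24e-16). At 1% O2 the fold was 6.36.

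NFKB2, the p100 precursor, had 234 and 221 under shSC at 20% O2, 269.6 and 262 under shSC at 1% O2, 81.6 and 82.2 under the shCHD4 label at 20% O2, and 73.4 and 75.7 under that label at 1% O2. Its shSC libraries were all above 221 and those labelled shCHD4 all below 83. The fold was 2.77 at 20% O2 (log2 -1.47, interval -1.57 to -1.37, limma adjusted p = 1.99e-15) and 3.55 at 1% O2. NFKB1, the p105 precursor, had 239.9 and 231 under shSC at 20% O2, 261 and 247 under shSC at 1% O2, 86.8 and 88.2 under the shCHD4 label at 20% O2, and 77.8 and 76.2 under that label at 1% O2. This was close to NFKB2 in pattern, with folds of 2.68 at 20% O2 (log2 -1.42, interval -1.52 to -1.33, limma adjusted p = 2.91e-15) and 3.28 at 1% O2.

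REL, the c-Rel subunit best known from lymphocytes, was the subunit with the fewest reads, 130 to 331 per library. It had 12.6 and 12.2 under shSC at 20% O2, 9.33 and 11.1 under shSC at 1% O2, 4.98 and 5.28 under the shCHD4 label at 20% O2, and 4.46 and 4.6 under that label at 1% O2. Its labels did not overlap either, and the fold was 2.29 at 20% O2 (log2 -1.19, interval -1.41 to -0.98, limma adjusted p = 5.95e-09) and 2.12 at 1% O2. In the GENCODE annotation, 50.7% of the REL exon bases (5702 bases) were shared with AC010733.2, a non-coding RNA on the same strand. AC010733.2 has no row in the deposited values, so how reads of the shared bases were assigned cannot be told here.

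RELA, the p65 subunit of the main p50 and p65 dimer, had 169 and 162 under shSC at 20% O2, 198 and 199 under shSC at 1% O2, 93.7 and 101 under the shCHD4 label at 20% O2, and 104 and 102 under that label at 1% O2. The lowest shSC library was at 162 and the highest library labelled shCHD4 at 104, so the labels stood apart here too, by less. The fold was 1.70 at 20% O2 (log2 -0.76, interval -0.86 to -0.67, limma adjusted p = 4.24e-11) and 1.92 at 1% O2.

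**Figure D2:**
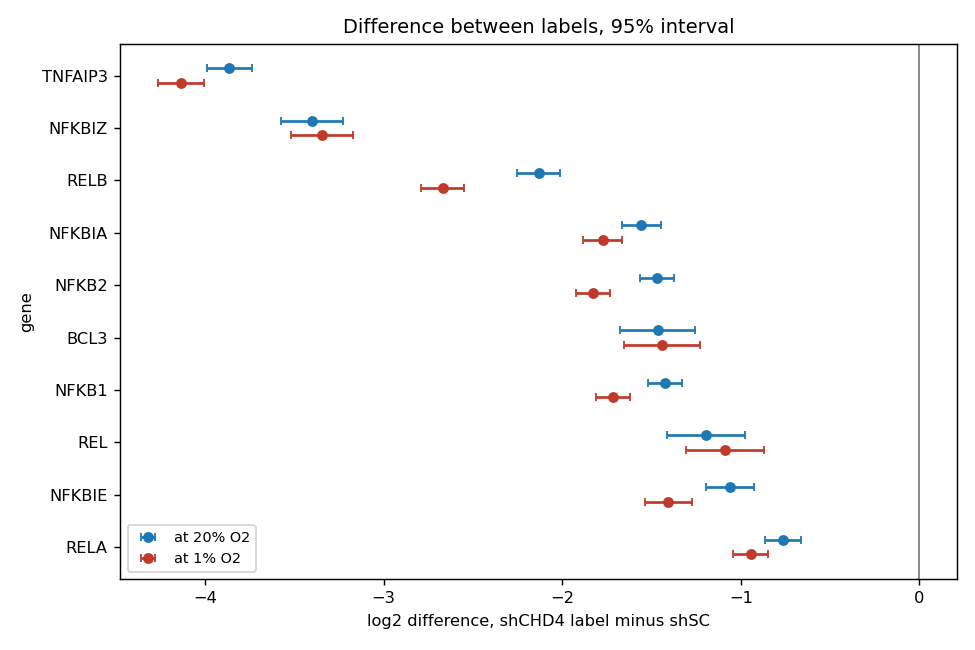
Log2 difference between labels (horizontal axis, shCHD4 label minus shSC) of each gene at 20% O2 (blue) and 1% O2 (red); points are limma estimates and bars 95% intervals. All estimates lie left of 0, from RELA (-0.76 and -0.94) to TNFAIP3 (-3.86 and -4.13). The 2 intervals of a gene do not overlap for RELB, NFKB1, NFKB2, NFKBIE and TNFAIP3. The test of that difference is the interaction of label and O2, which TNFAIP3 did not pass (limma adjusted p = 0.0851).

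The inhibitors and regulators included the genes with the largest differences of the 10, TNFAIP3 and NFKBIZ. TNFAIP3 had normalised read counts of 210.0 and 209 under shSC at 20% O2, 199 and 220.0 under shSC at 1% O2, 14.5 and 13.3 under the shCHD4 label at 20% O2, and 11.3 and 11.6 under that label at 1% O2. It was high in all 4 shSC libraries and low in all 4 libraries labelled shCHD4, which rested on 328 to 6547 reads per library. The means at 20% O2 were 209 ± 0.857 and 13.9 ± 0.828 (SD, n = 2), a fold of 14.6 (log2 -3.86, interval -3.99 to -3.74, limma adjusted p = 8.68e-20), and the fold at 1% O2 was 17.5. Of the 12645 genes, 50 had a lower difference at 20% O2 and 36 at 1% O2.

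NFKBIZ, the nuclear IkB-like protein needed for induction of a set of inflammatory genes such as IL6, had 103 and 108 under shSC at 20% O2, 88.5 and 94.0 under shSC at 1% O2, 8.57 and 10.6 under the shCHD4 label at 20% O2, and 9.0 and 8.06 under that label at 1% O2. The pattern was as for TNFAIP3, with no library between 11 and 88. The fold was 10.6 at 20% O2 (log2 -3.40, interval -3.58 to -3.23, limma adjusted p = 5.22e-17) and 10.2 at 1% O2, and 77 and 82 genes had a lower difference.

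NFKBIA, the IkB-alpha protein and classical feedback inhibitor, had 152 and 146 under shSC at 20% O2, 132 and 142 under shSC at 1% O2, 50.4 and 50.2 under the shCHD4 label at 20% O2, and 38.8 and 40.5 under that label at 1% O2. It differed between labels about as much as NFKB1 and NFKB2. Its fold was 2.94 at 20% O2 (log2 -1.56, interval -1.67 to -1.45, limma adjusted p = 5.53e-15) and 3.42 at 1% O2. NFKBIE, the IkB-epsilon protein, had 67.1 and 62.4 under shSC at 20% O2, 66.9 and 71.9 under shSC at 1% O2, 32.1 and 29.5 under the shCHD4 label at 20% O2, and 26.4 and 25.4 under that label at 1% O2. The labels stood apart by less than for NFKBIA, with folds of 2.09 (log2 -1.06, interval -1.19 to -0.93, limma adjusted p = 2.86e-11) and 2.65.

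BCL3, which binds p50 and p52 dimers in the nucleus, had 21.8 and 21.6 under shSC at 20% O2, 15.3 and 17.8 under shSC at 1% O2, 6.85 and 8.28 under the shCHD4 label at 20% O2, and 5.53 and 6.01 under that label at 1% O2. It rested on 161 to 582 reads per library. The fold was 2.76 at 20% O2 (log2 -1.47, interval -1.68 to -1.25, limma adjusted p = 2.14e-10) and 2.72 at 1% O2. The libraries of both labels stood apart for BCL3, as for the other 9 genes. The share of all tested genes for which this held was not counted. Of the 5 subunits and the 5 inhibitors and regulators, 5 and 5 passed the threshold at each O2 level. All 20 alternatives tried kept each of these calls.

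Few genes next to the 10 on the chromosome were lower under the shCHD4 label by more than the gene itself. Neighbours that were higher by as much were not counted. Among the 40 nearest tested genes in RefSeq order, the median log2 difference at 20% O2 lay between -0.23 around NFKBIZ and 0.52 around NFKBIE. For RELB, NFKB2, NFKBIA, NFKBIZ and TNFAIP3, 0 of the 40 neighbours had a lower difference than the gene itself. The number was 1 for NFKB1, 2 for REL and for NFKBIE, 3 for BCL3 and 4 for RELA. RELB and BCL3 lie close together on chromosome 19 and share their neighbours, so these are not independent loci.

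The 10 genes responded to 1% O2 by much less than they differed between labels, and not in 1 direction. Under shSC, NFKB2, RELA and RELB were higher at 1% O2 and BCL3 was lower. These were 4 of 10 genes past the threshold, compared with 35.2% of all tested genes, a share near the background. Upward calls were 3 of 10 against a background of 17.4%, and downward calls 1 of 10 against 17.9%. The median log2 difference was 0.05 for the 10 genes and -0.011 for all tested genes.

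RELA rose under shSC from 165 ± 4.79 to 198 ± 1.33 (SD, n = 2; log2 0.26, interval 0.16 to 0.36, limma adjusted p = 0.000297). NFKB2 rose from 228 ± 9.21 to 266 ± 5.67 (log2 0.22, interval 0.12 to 0.32, limma adjusted p = 0.00115). For both genes the 2 libraries at 1% O2 lay above the 2 at 20% O2, and all 20 alternatives kept the call. RELB rose from 108 ± 7.09 to 125 ± 0.126 (log2 0.22, interval 0.10 to 0.34, limma adjusted p = 0.00703). That call was lost without the second shSC library at 20% O2, the lower of the pair, where the adjusted p was 0.083 (range over the alternatives 0.00218 to 0.083). BCL3 fell by 0.38 on the log2 scale (interval -0.60 to -0.17, limma adjusted p = 0.0066), from 21.7 ± 0.107 to 16.6 ± 1.73. Its call was lost without the first shSC library at 1% O2, where the adjusted p was 0.102 (range 0.00184 to 0.102).

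The other 6 genes did not pass under shSC. NFKB1 had a log2 difference of 0.11 (limma adjusted p = 0.0739), REL of -0.27 (0.0522), NFKBIA of -0.12 (0.0766) and NFKBIZ of -0.21 (0.0619). These 4 lay near the threshold: NFKB1 passed when libraries were centred on their median (0.0433, range 0.0433 to 0.386). REL passed under 5 alternatives, NFKBIA under 2 and NFKBIZ under 6, with lowest adjusted p-values of 0.0221, 0.0395 and 0.00969. Among them, REL (0.0221) and NFKBIA (0.0395) passed without the second shSC library at 1% O2, and NFKBIZ without either library labelled shCHD4 at 20% O2 (0.0261 and 0.0268). Highest values over the alternatives were 0.393 for REL, 0.451 for NFKBIA and 0.29 for NFKBIZ. NFKBIE had 0.10 (limma adjusted p = 0.24). TNFAIP3 had a log2 difference of -0.0018 with an interval of -0.13 to 0.13 (limma adjusted p = 0.988), so a change beyond about 1.1-fold either way lay outside its interval.

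**Figure D3:**
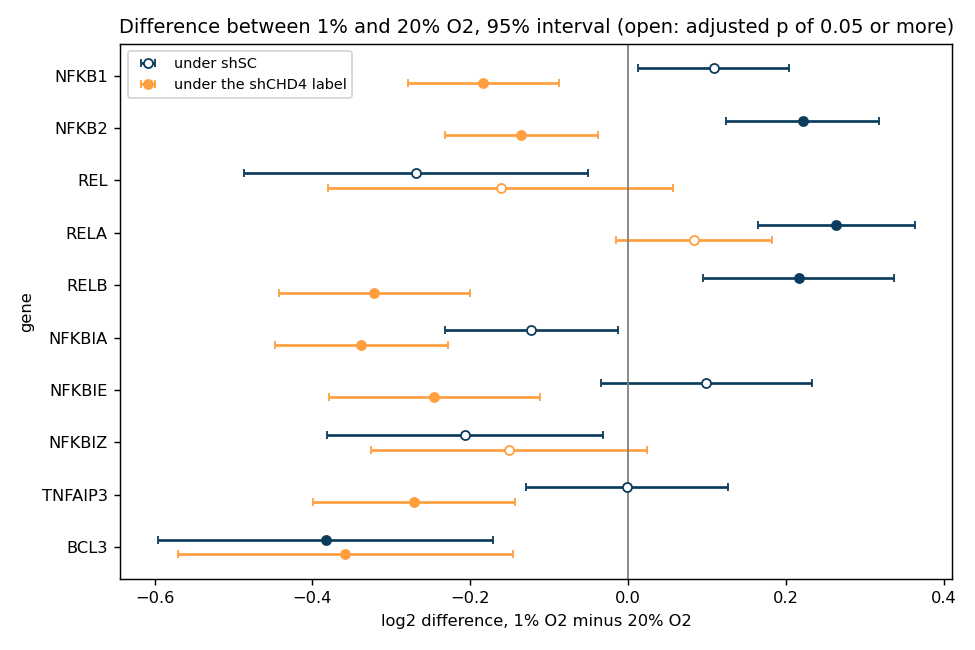
Log2 difference between 1% and 20% O2 (horizontal axis) of each gene under shSC (dark blue) and under the shCHD4 label (orange); points are limma estimates, bars 95% intervals, and open points did not pass the threshold. Under shSC the called points lie on both sides of 0 (RELA 0.26, BCL3 -0.38), and under the shCHD4 label all 7 called points lie left of it.

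In the libraries labelled shCHD4, 7 of the 10 genes were lower at 1% O2 and none was higher past the threshold. The background was 10.7% of tested genes lower and 12.3% higher, or 23.0% in all. The median log2 difference was -0.21, and that of all tested genes -0.0037. The 7 were NFKB1, NFKB2, RELB, NFKBIA, NFKBIE, TNFAIP3 and BCL3, so 3 of the 5 subunits and 4 of the 5 inhibitors and regulators.

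NFKBIA fell from 50.3 ± 0.155 to 39.7 ± 1.16 (SD, n = 2; log2 -0.34, interval -0.45 to -0.23, limma adjusted p = 0.000159). RELB fell from 24.3 ± 0.125 to 19.3 ± 0.564 (log2 -0.32, interval -0.44 to -0.20, limma adjusted p = 0.000642). In both genes the libraries at the 2 O2 levels did not overlap, and all 20 alternatives kept both calls. TNFAIP3 fell by 0.27 on the log2 scale (limma adjusted p = 0.00385), NFKB1 by 0.18 (0.00791), NFKBIE by 0.25 (0.00992), BCL3 by 0.36 (0.0165) and NFKB2 by 0.14 (0.0417).

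Those 5 calls depended on single libraries. TNFAIP3 lost its call without the first library labelled shCHD4 at 20% O2 (adjusted p = 0.0664, range over the alternatives 0.00312 to 0.0664). NFKB1 lost it without the second library at either O2 level (highest 0.0839, lowest 0.00388). NFKBIE lost it without the first library at 20% O2 or the second at 1% O2 (highest 0.137, lowest 0.00536). BCL3 lost it without the second library at 20% O2 or the first at 1% O2 (highest 0.184, lowest 0.00955). NFKB2 lost it without any 1 of the 4 libraries (highest 0.261, lowest 0.0219). NFKB1, NFKB2, NFKBIE and BCL3 also lost it in a fit without a variance trend, and NFKB2 and BCL3 also without the filter on low values and with DESeq2. NFKB2 lost it as well with edgeR (0.0615), with libraries centred on their median (0.0748) and with a replicate block (0.0536). REL, RELA and NFKBIZ did not pass, with log2 differences of -0.16, 0.08 and -0.15 and limma adjusted p-values of 0.277, 0.208 and 0.199. NFKBIZ passed without the first library at 20% O2 (0.0309, range 0.0309 to 0.962).

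The response to 1% O2 itself differed between the labels for 4 genes: RELB, NFKB2, NFKB1 and NFKBIE. The interaction of label and O2 was tested in the same fit, and 4.36% of all tested genes passed it, 2.14% in this direction and 2.21% in the other, beside 4 of 10 here. RELB rose under shSC and fell under the shCHD4 label, a difference of responses of -0.54 on the log2 scale (interval -0.71 to -0.37, limma adjusted p = 0.000662), which all 19 alternatives kept. NFKB2 also rose under shSC and fell under the shCHD4 label, and its responses differed by -0.36 (interval -0.49 to -0.22, limma adjusted p = 0.0037). Leaving out any 1 library kept that call too, and a fit without a variance trend lost it (0.0716, range 0.000437 to 0.0716). NFKB1 (-0.29, interval -0.43 to -0.16, limma adjusted p = 0.0136) and NFKBIE (-0.34, interval -0.53 to -0.16, limma adjusted p = 0.036) were less steady.

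NFKB1 lost the interaction call without the first shSC library at 1% O2, the second library labelled shCHD4 at 20% O2, or either labelled shCHD4 at 1% O2 (adjusted p over the alternatives 0.00746 to 0.116). NFKBIE lost it without the second shSC library at either O2 level, the first library labelled shCHD4 at 20% O2, or either at 1% O2 (0.015 to 0.163). Both genes also lost it without the filter or the variance trend, and NFKBIE with quantile normalisation (0.0509). The 6 others had limma adjusted p-values of 0.0851 (TNFAIP3), 0.111 (NFKBIA), 0.143 (RELA), 0.757 (REL), 0.852 (NFKBIZ) and 0.949 (BCL3). TNFAIP3, NFKBIA and RELA had differences of -0.27, -0.22 and -0.18, in the same direction as the 4 called genes but not past the threshold. BCL3 had log2 responses of -0.38 under shSC and -0.36 under the shCHD4 label.

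To compare levels between the genes, the normalised read count was divided by exon length in kilobases (union of exons in the GENCODE v29 basic set, not the authors' annotation). At 20% O2 under shSC the highest mean level per kilobase was that of NFKBIA (78.4), followed by NFKB2 (61.9), RELA (48.8), RELB (47.0), TNFAIP3 (44.2) and NFKB1 (42.7). NFKBIZ and NFKBIE (both 25.1), BCL3 (10.6) and REL (1.10) followed. The libraries of RELA (47.8 and 49.8) and RELB (44.8 and 49.2) overlapped, as did those of NFKBIZ and NFKBIE, so those neighbours in the order did not differ beyond their spread. With the length of the longest transcript in place of the union, NFKB1 moved from the sixth place to the third (57.7).

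In the libraries labelled shCHD4 at 20% O2 the order was another one. RELA (28.7 per kilobase) and NFKBIA (26.5) came first, then NFKB2 (22.2), NFKB1 (15.8), NFKBIE (11.9) and RELB (10.5), with BCL3 (3.71), TNFAIP3 (2.94), NFKBIZ (2.28) and REL (0.456) last. TNFAIP3 thus went from rank 5 to rank 8 of the 10, and NFKBIZ from rank 7 to rank 9. By longest transcript NFKBIA (32.3) stood ahead of RELA (30.5). At 1% O2 the level of RELA under the shCHD4 label (30.4) was above that of NFKBIA (20.9), whereas under shSC NFKB2 (72.1) and NFKBIA (72.0) led and their libraries overlapped.

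**Figure D4:**
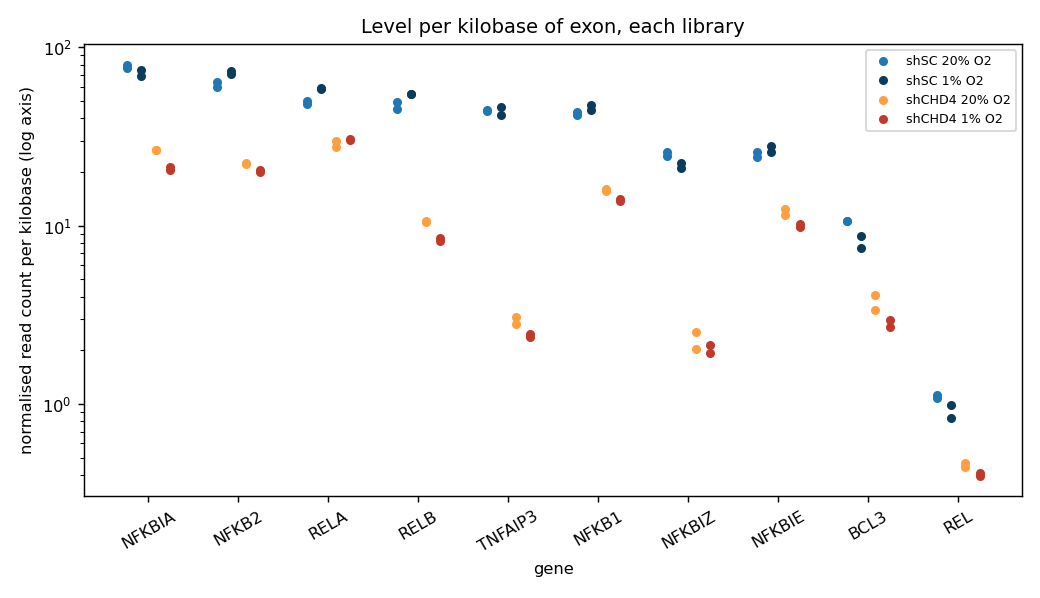
Normalised read count per kilobase of exon (vertical log axis) of each gene in each library, ordered by the mean under shSC at 20% O2; each point is 1 library, coloured by label and O2. NFKBIA leads under shSC at 20% O2 (78.4), REL is lowest in every group (0.403 to 1.10 as group means), and TNFAIP3 and NFKBIZ drop farthest between the labels.

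The rest of the pathway was read from lists made by role: receptors and adaptors (22 genes), kinases and ubiquitin machinery (23), other negative regulators (20) and known NF-kB targets (31). Unlike the 10 genes, the upstream lists moved both ways between labels. At 20% O2, 14 of 22 receptors and adaptors were lower and 4 higher in the libraries labelled shCHD4, with a median log2 difference of -0.68. Among kinases and ubiquitin machinery 14 of 23 were lower and 6 higher (median -0.34), and among other negative regulators 12 of 20 were lower and 6 higher (median -0.35). At 1% O2 the counts were 14 lower and 5 higher, 13 lower and 7 higher, and 11 lower and 6 higher. The background of 38.6% and 39.2% of genes lower applies to all of these counts. Some genes passed the filter on low values only because they were high under 1 label. With a mean of at least 1 in every group, 12 of 20 receptors and adaptors were lower at each O2 level. Of 18 other negative regulators, 11 were lower at 20% O2 and 10 at 1% O2. The share of all such genes was 38.4% and 39.0%. The medians were not repeated with that filter. All 23 genes of the kinase list met that filter, so its counts were unchanged.

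Of the receptors and adaptors, IRAK2, a kinase-like adaptor of interleukin-1 and Toll-like receptor signalling, went from a mean normalised read count of 154 under shSC to 11.1 under the shCHD4 label at 20% O2, a 13.3-fold difference. IL1RAP, the co-receptor for interleukin-1, went from 52.0 to 11.5, or 4.35-fold, and TNFRSF12A, the receptor for TWEAK, from 137 to 64.6, or 2.11-fold. TLR2, a receptor for bacterial lipoproteins, went from 10.5 to 0.125, which rests on 3 and 4 reads in the libraries labelled shCHD4. TRADD, the adaptor of the TNF receptor, and RIPK1, its kinase, were higher under the shCHD4 label, by 1.22 and 0.83 on the log2 scale (limma adjusted p = 1.3e-08 and 8.19e-12). Both of these were picked after their values were seen.

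Of the kinases and ubiquitin machinery, IKBKE, an IkB kinase-related enzyme, went from 53.5 to 14.8 (3.54-fold) at 20% O2. BIRC2, the ubiquitin ligase cIAP1, went from 341 to 176 (1.93-fold), TAB2, an adaptor of the kinase TAK1, from 215 to 128 (1.67-fold), and TRAF3, which restrains the non-canonical pathway, from 66.5 to 41.3 (1.60-fold). Of the other negative regulators, TNIP1, which binds TNFAIP3, went from 571 to 156 (3.66-fold) and ZC3H12A, an RNase that degrades inflammatory messages, from 37.2 to 4.68 (7.28-fold). NKRF, a repressor of NF-kB promoters, went from 68.0 to 32.7 (2.07-fold), and TNIP3, a relative of TNIP1, from 4.81 to 0.158, the latter on 2 and 7 reads. The genes named from these 2 lists were those of smallest p and were all lower. In each list 6 other genes were called higher at 20% O2.

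The known targets moved in 1 direction between labels: 23 of the 24 tested were lower at 20% O2 and all 24 at 1% O2, with medians of -2.29 and -2.93. At each O2 level 19 of them were lower by 2-fold or more, beside 8.07% of all tested genes at 20% O2 and 8.56% at 1% O2. The exception at 20% O2 was BCL2L1, an anti-apoptotic gene, at 549 and 536 (limma adjusted p = 0.444). Since the filter on low values let in genes that were high under 1 label alone, the count was repeated for the 21 targets with a mean of at least 1 in every group. Of these 20 were lower at 20% O2 and 21 at 1% O2, beside 38.4% and 39.0% of all such genes. The medians and the count by 2-fold were not repeated for these 21. The 7 that were not tested were VCAM1, CCL2, CCL5, TNF, MMP9, LTB and TNFAIP6. Results of these libraries for part of this list were known when it was made, so its direction is not independent evidence.

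Examples of the targets are secreted factors of inflammation. IL8, a neutrophil chemokine, had means of 3563 and 34.1 at 20% O2, CXCL1 505 and 3.22, CXCL2 241 and 1.51, and IL6 323 and 3.15, shSC first. ICAM1, a leukocyte adhesion molecule, went from 1036 to 45.4 at 1% O2 (22.6-fold). The differences of IL8, CXCL1, CXCL2 and IL6 at 20% O2 were larger than those of any of the 10 genes. For ICAM1 this held at 1% O2, where TNFAIP3 had a fold of 17.5, and not at 20% O2. There ICAM1 had means of 558 and 42.5, and TNFAIP3 of 209 and 13.9.

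**Figure D5:**
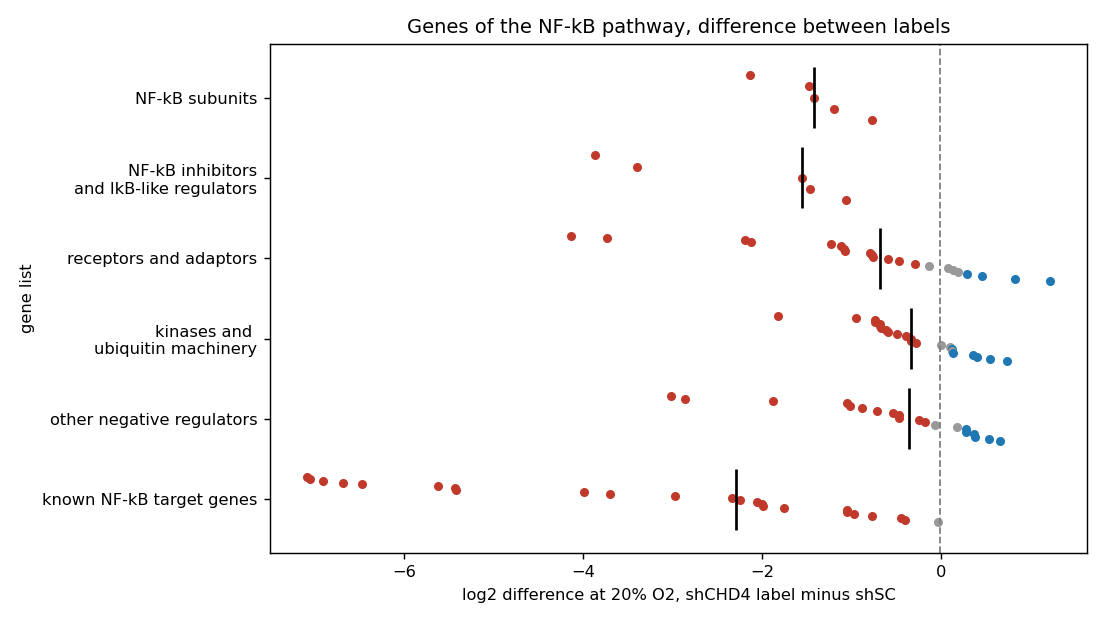
Log2 difference between labels at 20% O2 (horizontal axis, shCHD4 label minus shSC) of each tested gene in 6 lists; red points passed the threshold as lower, blue as higher, grey did not pass, and black bars are list medians. The subunits and the inhibitors and regulators lie left of 0 throughout. The upstream lists lie on both sides (medians -0.68, -0.34 and -0.35), and the targets reach -7.09 (CXCL1).

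At 1% O2 under shSC the targets moved both ways, beside a background of 17.4% of genes higher and 17.9% lower. Of 22 receptors and adaptors 5 were higher and 2 lower, of 23 kinases and ubiquitin machinery 5 and 3, of 20 other negative regulators 8 and 3, and of 24 targets 9 and 10. IL1RAP rose from 52.0 to 93.4 (log2 0.85), CYLD, a deubiquitinase that opposes NF-kB signalling, from 121 to 158 (0.39), and IKBKB, the main IkB kinase, from 42.1 to 54.4 (0.37). MAP3K14 (NIK), the kinase that starts p100 processing, fell by 0.36 on the log2 scale, from 36.4 to 28.2. Among targets ICAM1 rose from 558 to 1036 (0.89) and IL1B from 276 to 485 (0.81), and IL6 fell from 323 to 227 (-0.51).

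Under the shCHD4 label, 1% O2 gave 1 higher and 2 lower receptors and adaptors, 2 and 1 kinases and ubiquitin machinery, 4 and 2 other negative regulators, and 2 and 10 targets. These counts stand beside 12.3% of all tested genes higher and 10.7% lower. IL1RAP rose there too, from 11.5 to 21.1 (log2 0.85), and TNIP1 from 156 to 232 (0.58), while TRAF3 fell from 41.3 to 33.0 (-0.32). Of the targets TRAF1, a signalling adaptor, fell from 16.9 to 11.3 (-0.56) and IL8 from 34.1 to 25.7 (-0.40), and PTGS2, the inducible cyclooxygenase, rose from 11.7 to 18.0 (0.60). The interaction passed for 1 lower receptor or adaptor, for 1 gene each way in the kinase list and in that of other negative regulators, and for 1 higher and 4 lower targets. Over all tested genes it passed for 2.21% higher and 2.14% lower.

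Genes with the most similar profile were sought for NFKBIA, NFKB2 and RELA by the root mean square distance of their centred log2 values over the 8 libraries, among 12625 genes. For NFKB2 the nearest 3 were PVR (0.037), USP36 (0.052) and NFKB1 (0.063), so another of the 10 genes was among them. PVR had normalised read counts of 316 and 310 under shSC at 20% O2 and of 111 and 112 under the shCHD4 label. For NFKBIA the nearest were S1PR3 (0.064), PELP1 (0.066) and SQRDL (0.076), and the nearest of the 10 genes was NFKB1 at rank 17. For RELA they were PLEKHG2 (0.013), PDE4DIP (0.031) and FBRS (0.039), and the nearest of the 10 genes was NFKBIE at rank 1910 (0.238). The 8 points share labels and O2 levels, so these distances describe the profiles and carry no test.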

How the data were processed

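The authors deposited 1 table of 19583 genes by 8 libraries. The submitters' processing notes name build hg19 and the tools TopHat, featureCounts, edgeR, Picard 1.127, FastQC 0.11.2 and bcl2fastq 2.17. Neither the gene annotation nor whether counting used strand is given in the sources used here. The table is named FPKM, but the values the authors deposited are a signal of reads divided by 1 factor per library: all were whole multiples of 1 step within 0.01 reads, which gave back the reads. The planned test for such values was kept. In all, 27 rows with names turned into dates and 4 with repeated names were kept unnamed.

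Genes with a mean of at least 1 (12645) were fitted on log2(value + 0.5) by limma 3.58.1 (R 4.3.3), with 4 group means and a variance trend, two-sided, with Benjamini-Hochberg adjustment over all genes in each of 5 comparisons, and intervals at 95%. Fold changes are on that scale and understate low genes. With 2 libraries a group no exact permutation p can be under 0.33, so none was computed. On simulated data for shCHD4 against shSC at 20% O2, with 12645 genes, 97.0% of 2-fold and 86.6% of 1.5-fold changes were recovered. False calls numbered 8. For 1% against 20% O2 under shSC, 88.1% of 1.5-fold changes were recovered, with 16 false calls. Smaller changes were not simulated, and far fewer genes were changed than were called between the labels. Libraries of 1 group differed beyond counting noise, with a chi-square of 2.12 to 4.48 for each degree of freedom.

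The 10 genes, the other lists, the tests and the rule for naming genes were chosen with earlier results of these data known. The rule takes all 10 genes, up to 4 called genes of smallest p per list and comparison, of which some are named, the 3 nearest profiles and CHD4. Alternatives were the pseudocount, the filter, the scaling, the variance trend, the samples fitted, edgeR 4.0.16 and DESeq2 1.42.0 on recovered reads, a replicate block, and leaving out each library.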

Additional observations from a re-analysis of the deposited data

Results flagged for a closer look

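The response to 1% O2 differed between the labels, by the interaction test, for 4 of the 10 genes. The difference, under the shCHD4 label minus under shSC on the log2 scale, was -0.538 for RELB, -0.356 for NFKB2, -0.345 for NFKBIE and -0.292 for NFKB1. RELB and NFKB2 were called in opposite directions under the 2 labels. NFKB1 and NFKBIE were called lower under the shCHD4 label and did not pass under shSC.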

How the results depend on the processing

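The differences between labels kept their direction and their side of the threshold for all 10 genes under all 20 alternatives. The responses to O2 were less firm. Of 990 values of the 10 genes under alternatives, 922 kept direction and call, 39 lost the call, 15 gained it and 14 changed sign. Without the variance trend 3 of the 10 genes, not 7, were called for O2 under the shCHD4 label, and 1, not 4, for the interaction. Without the filter 2 were called for the interaction. Over all genes the calls for O2 under the shCHD4 label went from 2903 to 1920 without the filter and 1815 without the trend, and those for the interaction from 551 to 155 under each. The cause was not tested. Leaving out 1 library gave 4 to 7 of the 10 genes for O2 under the shCHD4 label, 2 to 4 for the interaction and 3 to 6 for O2 under shSC. Over all genes it gave 1326 (without the first library labelled shCHD4 at 1% O2) to 3468, 245 (without the second) to 994 (without the first shSC library at 20% O2), and 3024 to 4347.

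Sign changes were found in differences near 0. For O2 under shSC, TNFAIP3 went to 0.023 with median centring, 0.0061 with edgeR, 0.0084 with DESeq2, and ranged from -0.074 to 0.071 (also 0.0024) without a library. In the interaction BCL3 went to -0.012 with quantile normalisation, -0.0090 with edgeR, -0.011 with DESeq2 and ranged from -0.10 to 0.15 (also -0.078 and -0.030) without a library. REL went to -0.013 without the first shSC library at 1% O2, and NFKBIZ ranged from -0.087 to 0.20 (also -0.020). Without a library CHD4 ranged from -0.059 to 0.00086 for O2 under its label and from -0.025 to 0.029 between labels at 20% O2. With quantile normalisation CHD4 was called higher under the shCHD4 label, by 0.11 at 20% O2 and 0.23 at 1% O2, and with median centring by 0.10 at 1% O2. No alternative called it lower there.

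Same-numbered libraries did not deviate together to any large extent (r -0.12 to 0.12 over 6 pairs of groups). That cannot tell whether they were prepared together. With a replicate block the calls were 4 for O2 under shSC, 6 for O2 under the shCHD4 label, 10 between labels at each O2 level and 4 for the interaction among the 10 genes. The call it ended was that of NFKB2 for O2 under the shCHD4 label (adjusted p = 0.0536). Over all genes they were 4370, 2795, 9536, 9755 and 536. With the shCHD4 numbers crossed at 1% O2, chosen after seeing the data, the calls among the 10 genes were 5, 7, 10, 10 and 4. Depth limits REL and BCL3 most, at 130 and 161 reads in their lowest libraries.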
